A study of Brassica rapa subsp. pekinensis with 2 samples.

Results

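Cytochrome P450 genes were described in flower buds of the Chinese cabbage (Brassica rapa subsp. pekinensis) line AB02, which carries genic male sterility. The 4 genes were Bra003795 (CYP98A8, Arabidopsis code AT1G74540), Bra006830 (CYP81F2, AT5G57220), Bra011761 (CYP91A2, AT4G37430) and Bra036345 (CYP71B22, AT3G26200). They were chosen from 41019 genes because the authors' deposited pathway table paired them with a P450 symbol, which it did only for genes that the authors had listed as differing between the libraries. These were the 4 genes with a P450 name or description in the deposited tables. Other P450 genes of the genome carried an identifier alone and were not analysed here.

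The samples were 1 library of sterile buds and 1 library of fertile buds, both labelled male, from plants grown in a greenhouse after vernalization. AB02 is an AB line, whose sterile and fertile plants segregate within 1 population, and its sterility depends on a nuclear gene with multiple alleles. The labels gave no bud stage and no number of plants. With 1 library per group no difference has a replicate check, no p-value was computed, and the members' own differences chose them, so they are a description. The authors' levels are RPKM, read numbers scaled to gene length and library total. The totals behind them came to 1567647 reads in sterile and 1803154 reads in fertile buds, if gene lengths are taken in steps of 3 bp. Intervals below are exact 95% intervals of the read numbers and cover counting error only.

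Cytochrome P450 enzymes are haem proteins of the endoplasmic reticulum that insert an oxygen atom into small molecules, and plants hold large families of them. In anthers, P450s make hydroxylated fatty acids for the pollen wall and hydroxylated phenolamides for the pollen coat, while others act in leaf and root defence. In Arabidopsis, CYP98A8 hydroxylates the phenolic arms of spermidine conjugates in the tapetum, the layer that feeds developing pollen. CYP81F2 modifies the indole ring of indole glucosinolates, sulphur-rich defence compounds of the cabbage family. No role is given here to CYP91A2 or CYP71B22.

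CYP98A8 and CYP81F2 were lower in sterile buds, and CYP91A2 and CYP71B22 were higher there. CYP98A8 had 50.3 RPKM in sterile and 1200.45 RPKM in fertile buds. Its transcript was thus abundant in fertile buds and lower, but well above 0, in sterile buds. CYP81F2 had 3.01 RPKM in sterile and 16.8 RPKM in fertile buds. CYP91A2 had 108 RPKM in sterile and 1.85 RPKM in fertile buds. CYP71B22 had 32.7 RPKM in sterile and 7.38 RPKM in fertile buds. For each of the 4 genes the intervals of the 2 levels did not overlap. That was likely from the start, since the authors had listed these genes as differing in the same reads. The share of all genes with such intervals was not computed. In bulk buds, fewer cells of a type and less RNA per cell cannot be told apart.

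**Figure D1:**
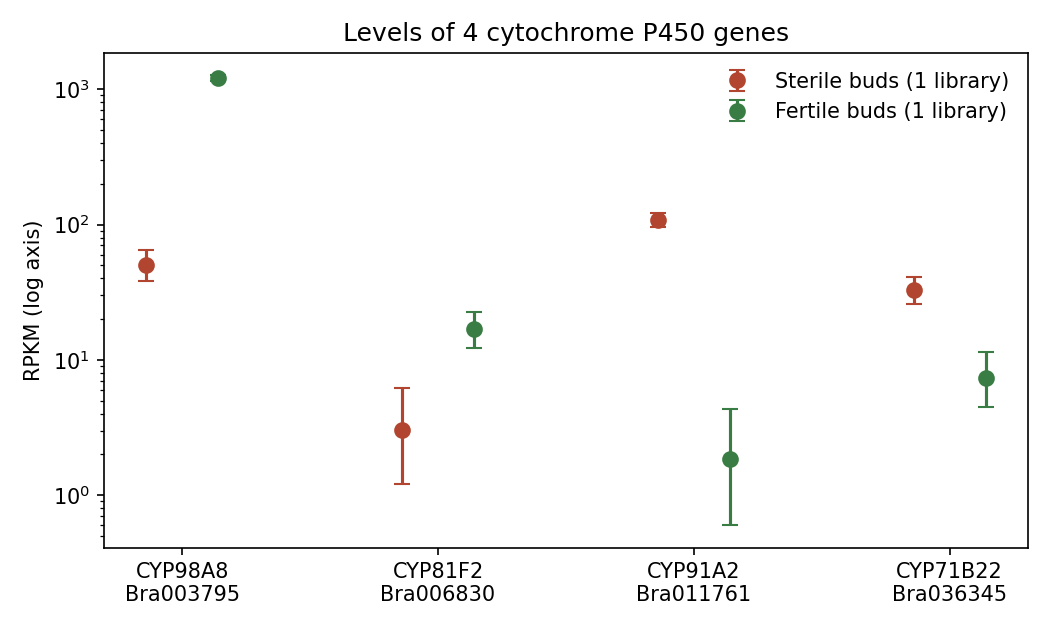
RPKM on a log axis for each P450 gene in the sterile library (red, left) and the fertile library (green, right), with bars for the exact 95% counting interval of the reads. CYP98A8 stood at 50.3 RPKM in sterile and 1200.45 RPKM in fertile buds, and CYP91A2 at 108 RPKM in sterile and 1.85 RPKM in fertile buds.

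The sterile bud transcriptome was read against pollen genes. The 8 genes paired with PPME1, AT59 or PGA4, pectin enzymes of pollen, summed to 0.463 RPKM in sterile and 2361 RPKM in fertile buds, and 7 of the 8 were at 0 in sterile buds. Single genes ranged from 0 to 0.463 RPKM in sterile and from 25 to 959 RPKM in fertile buds. These genes were named only because the authors had listed them as differing. The levels of CYP98A8 and CYP81F2 moved in the same direction, and the part of pollen content in them was not tested. No genes of the tapetum were used as a reference.

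As ratios, the 4 genes spanned a wide range. CYP98A8 was 23.9-fold lower in sterile buds (interval 18.3 to 31.7), from at least 57 reads in sterile and 1565 in fertile buds. CYP81F2 was 5.59-fold lower (interval 2.5 to 14.7), from at least 7 reads in sterile and 45 in fertile buds. The fold of CYP91A2 was 58.4, higher in sterile buds (interval 24.7 to 182), from at least 254 reads in sterile and 5 in fertile buds. The upper end of that interval is set by the 5 fertile reads, since 1 read in this gene was worth 0.37 RPKM there. CYP71B22 was 4.43-fold higher (interval 2.68 to 7.65), from at least 77 reads in sterile and 20 in fertile buds. No interval reached a ratio of 1, which again was likely from how the genes were chosen.

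**Figure D2:**
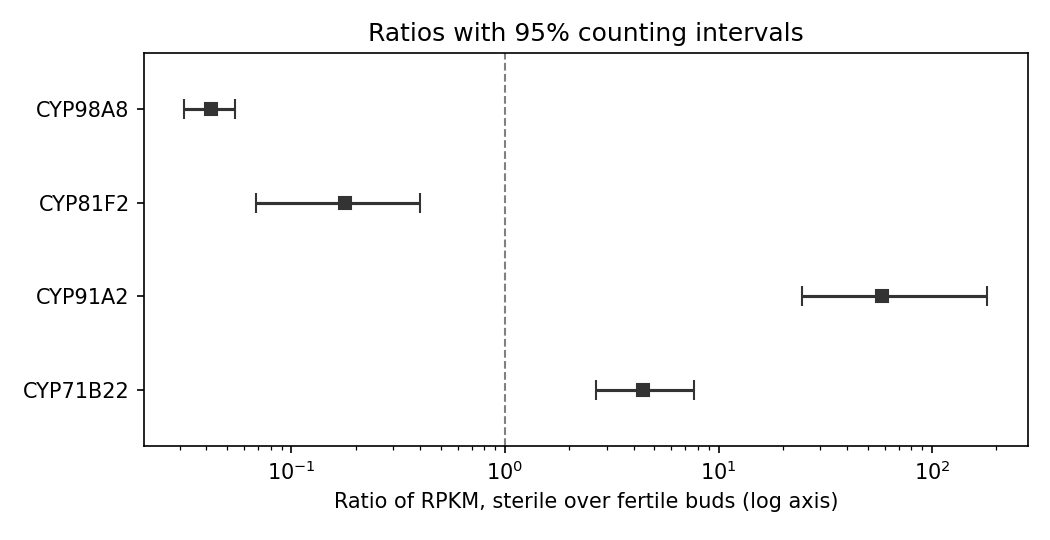
Ratio of RPKM in sterile over fertile buds on a log axis, 1 library each, with exact 95% counting intervals. The dashed line marks equal levels. CYP98A8 and CYP81F2 lie left of it at 0.0419 and 0.179, and CYP91A2 and CYP71B22 right of it at 58.4 and 4.43.

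The reads are the smallest whole numbers that give both RPKM values at 1 gene length, and true reads can be a multiple of them. At these reads the gene length was 1482 bp for CYP81F2, 1497 bp for CYP91A2 and 1503 bp for CYP71B22, so that 3 of the genes were nearly equal in length. For CYP98A8 it was 723 bp, or 1446 bp if the true reads were 2 times as many. With 114 reads in sterile and 3130 in fertile buds, the fold of CYP98A8 stayed at 23.9 and its interval narrowed to between 19.8 and 29. The files do not say which length the authors used. A level in RPKM does not depend on this choice.

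The order of the 4 genes by RPKM differed between the libraries. In sterile buds CYP91A2 came first, then CYP98A8, CYP71B22 and CYP81F2. Here CYP91A2 was 2.15 times as high as CYP98A8 (interval 1.61 to 2.92). CYP98A8 was 1.54 times as high as CYP71B22 (interval 1.07 to 2.2), the closest pair of neighbours. CYP71B22 was 10.8 times as high as CYP81F2 (interval 5.02 to 27.9). In fertile buds CYP98A8 came first, then CYP81F2, CYP71B22 and CYP91A2. CYP98A8 was 71.3 times as high as CYP81F2 there (interval 53 to 98.1). CYP81F2 was 2.28 times as high as CYP71B22 (interval 1.32 to 4.08), and CYP71B22 was 3.98 times as high as CYP91A2 (interval 1.45 to 13.6). Each neighbour in either order differed by more than counting error, with no replicate to set it against. Some change of order was likely, since the authors had listed these genes as differing in opposite directions.

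Summed over the 4 genes, RPKM was 194 in sterile and 1227 in fertile buds. CYP98A8 made up 25.9% of that sum in sterile and 97.9% in fertile buds, and CYP91A2 made up 55.7% in sterile and 0.151% in fertile buds. Without CYP98A8 the other 3 genes summed to 144 RPKM in sterile and 26.1 RPKM in fertile buds, so the direction of the sum of these 4 genes was that of CYP98A8. The sum leaves out the other P450 genes of the genome and gives no direction for the family.

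Among the 41019 genes, CYP98A8 ranked 4637th by RPKM in sterile and 93rd in fertile buds. It was above 88.7% of genes in sterile buds, the library where it was lower. CYP91A2 ranked 2205th in sterile and 23621st in fertile buds, and was above 94.6% and 42.4% of genes in sterile and fertile buds. CYP71B22 was above 83.9% of genes in sterile and 61.6% in fertile buds. CYP81F2 was above 49.8% of genes in sterile and 74.8% in fertile buds, which put it near the middle of all genes in sterile buds.

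On the log2(RPKM + 1) scale, which understates the difference of low genes, sterile minus fertile was -4.55 for CYP98A8 and -2.15 for CYP81F2. It was 5.26 for CYP91A2 and 2.01 for CYP71B22. A difference of at least 1 was used as a rule of size. Among the 27940 genes that reached RPKM 1 in sterile or fertile buds, 14.5% passed this rule as lower in sterile buds and 11.5% as higher, so that 55.6% of those passing were lower. Rescaling the sterile library made this share 65.8% (by the median ratio), 67.3% (by a trimmed mean of log ratios) or 57.8% (by the upper quartile). The median difference of the 27940 genes was 0.17, and these rescalings shifted sterile buds by -0.2, -0.23 and -0.042. All 4 P450 genes passed the rule of size, 2 in each direction, which follows from how they were chosen. CYP91A2 had the 4th highest difference of the 27940 genes. CYP71B22 had the 547th highest, CYP98A8 the 543rd lowest and CYP81F2 the 1716th lowest.

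**Figure D3:**
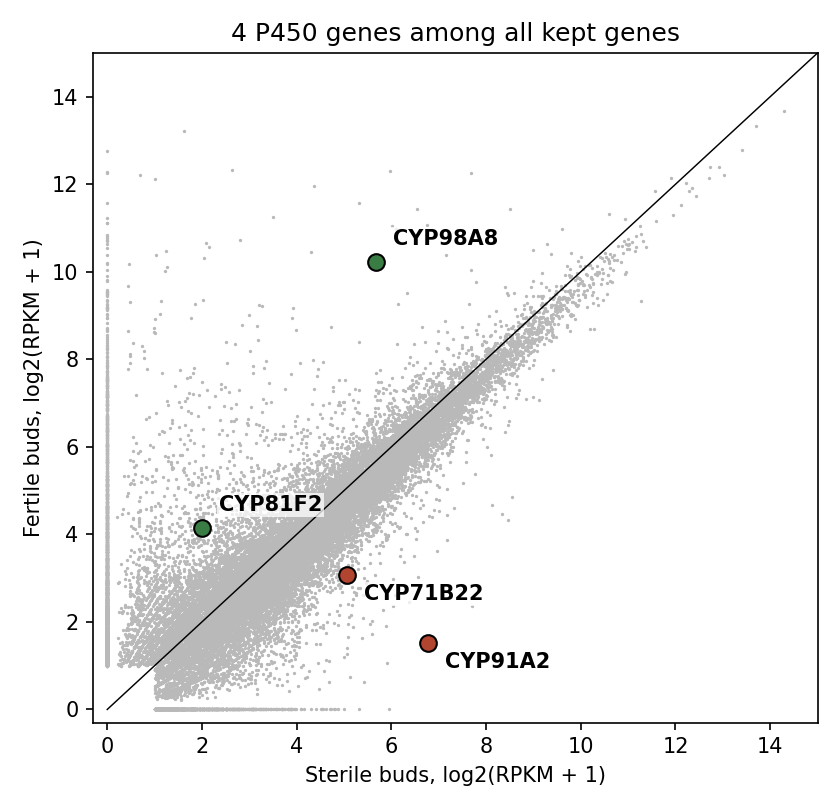
Levels of the 27940 genes that reached RPKM 1 in sterile or fertile buds (grey), as log2(RPKM + 1) in sterile buds on the horizontal and fertile buds on the vertical axis. The line marks equal levels. CYP98A8 and CYP91A2 lie outside the dense band on opposite sides, with 0 other genes within 0.5 of either, while CYP81F2 and CYP71B22 have 105 and 96 genes within 0.5.

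The authors' deposited table listed 906 genes as lower and 106 as higher in sterile buds, which is 3.24% and 0.379% of the 27940 genes. Its fold changes run as fertile over sterile and carry a further scaling of 0.239 on the log2 scale. The authors' deposited table gave a log2 fold change, fertile over sterile, of 4.82 for CYP98A8, 2.72 for CYP81F2, -5.63 for CYP91A2 and -1.91 for CYP71B22. The q-value in the authors' deposited table was 0 for CYP98A8, 0.000973 for CYP81F2, 4.98e-38 for CYP91A2 and 7.17e-06 for CYP71B22. The highest q-value of any gene in the authors' deposited table was 0.000999, so CYP81F2, 1011th of 1012 genes by q-value, stood at its edge. The sources used here do not name the test, and with 1 library per group it compares these libraries.

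The genes stood at different places among those the authors listed. Of the 906 lower genes, 475 were at 0 in sterile buds and 431 were above 0. CYP98A8 had the 38th highest RPKM of the 906 genes in fertile buds and the 15th highest in sterile buds. By the authors' fold it came 667th of 906, behind the genes at 0 in sterile buds, and 192nd of the 431 others. CYP81F2 came 386th of the 431 by fold and 800th of 906 by RPKM in fertile buds. In the authors' deposited table CYP91A2 had the 4th largest fold of the 106 higher genes, and the 2nd largest of the 100 genes above 0 in both libraries. Its RPKM in sterile buds was the 23rd highest of the 106. CYP71B22 came 90th of 106 by fold and 76th by RPKM in sterile buds.

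The P450 genes fell into 2 sets by pathway. CYP98A8 was listed in 1 pathway, phenylpropanoid biosynthesis, which makes lignin units and other phenolic compounds from phenylalanine. CYP81F2, CYP91A2 and CYP71B22 were listed together in 4 pathways. These were stilbenoid, diarylheptanoid and gingerol biosynthesis, limonene and pinene degradation, biosynthesis of secondary metabolites, and metabolic pathways. CYP98A8 was in none of these 4. The row for stilbenoids does not name indole glucosinolates, the compounds that CYP81F2 acts on in Arabidopsis. All genes of the pathway table had been listed by the authors as differing, and 89.5% of the 1012 listed genes were lower in sterile buds, with a median difference of -4.51.

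In phenylpropanoid biosynthesis 6 of 9 genes were lower in sterile buds and 3 higher, with a median difference of -4.62. CYP98A8 had the highest RPKM of the 9 genes in fertile buds and the 2nd highest in sterile buds, where the peroxidase gene Bra029933 (PRXCB) led. PRXCB had 279 RPKM in sterile and 24.3 RPKM in fertile buds. The 3 lowest differences belonged to 2 copies of the peroxidase gene AT5G47000 and to UGT72E2, a glucosyltransferase of lignin precursors. Bra022090 (AT5G47000) had 0 RPKM in sterile and 98.6 RPKM in fertile buds, and Bra017514 (AT5G47000) had 0 RPKM in sterile and 65.1 RPKM in fertile buds. The other copy, Bra024972 (AT5G47000), had 2.43 RPKM in sterile and 82.9 RPKM in fertile buds. Bra037155 (UGT72E2) had 0 RPKM in sterile and 39.3 RPKM in fertile buds. Its 95 fertile reads made it at least 27.5-fold lower in sterile buds, set against 3 reads. CYP98A8 had the smallest difference of the 6 lower genes. The other genes higher in sterile buds were peroxidases too, Bra017761 (AT4G36430) with 41.6 RPKM in sterile and 0.557 RPKM in fertile buds, and Bra039920 (AT2G18150) with 24.6 RPKM in sterile and 0.549 RPKM in fertile buds. The pathway counted 7 of 109 Arabidopsis genes in the authors' deposited table, at p = 0.0744 and corrected p = 0.805.

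The other 2 narrow pathways each held 4 genes, of which 3 were P450 genes. Stilbenoid, diarylheptanoid and gingerol biosynthesis held 2 lower and 2 higher genes. Both higher genes were P450s, CYP91A2 and CYP71B22. The lower genes were CYP81F2 and Bra010977 (AT1G24735), which the phenylpropanoid row listed as well. Bra010977 had 7.12 RPKM in sterile and 292 RPKM in fertile buds and was 41.1-fold lower in sterile buds (interval 20.6 to 95.8). Limonene and pinene degradation also held 2 lower and 2 higher genes, with ALDH2B7, an aldehyde dehydrogenase, in the place of Bra010977. Bra024619 (ALDH2B7) had 4.75 RPKM in sterile and 75.7 RPKM in fertile buds. The median difference was -0.07 in each of these rows. The authors' deposited table gave 4 of 62 Arabidopsis genes to the stilbenoid row (p = 0.155) and 4 of 67 to the limonene row (p = 0.188), both at corrected p = 1.

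**Figure D4:**
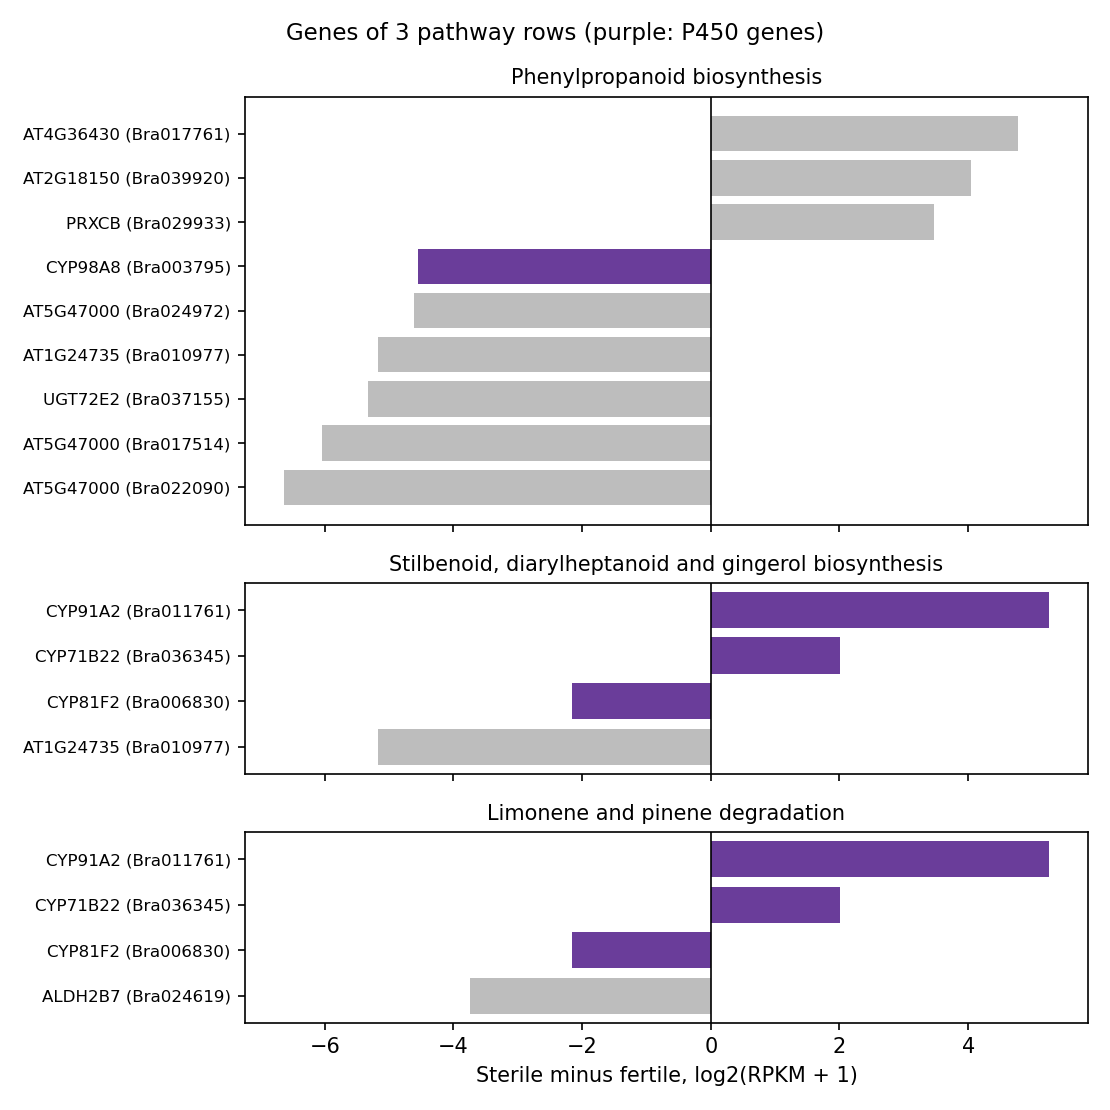
Sterile minus fertile difference on the log2(RPKM + 1) scale for each gene of the 3 narrow pathways that list a P450 gene (P450 genes in purple, others in grey), 1 library per group. In each of the lower 2 panels both genes right of 0 are P450 genes, while CYP98A8 lies at -4.55 in the upper panel.

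The 2 broad pathways held more genes of mixed function. In biosynthesis of secondary metabolites 24 of 31 genes were lower and 7 higher in sterile buds, and without the P450 genes 23 of 28 were lower. CYP91A2 had the highest difference of the 31 genes and the 2nd highest RPKM in sterile buds. The next differences were those of the peroxidase genes AT4G36430 and AT2G18150 above. The lowest 3 were the same 2 copies of AT5G47000 and Bra039216 (GGPS2), a prenyl diphosphate synthase, with 8.7 RPKM in sterile and 593 RPKM in fertile buds. In metabolic pathways 62 of 71 genes were lower and 9 higher, and without the P450 genes 61 of 68 were lower. CYP91A2 again had the highest difference, with 2 peroxidase genes next, and CYP71B22 had the 8th highest. The lowest 3 were Bra033347 (PGA4), Bra030510 (PGA4) and Bra009265 (PPME1), at 0 in sterile and at 959, 523 and 400.03 RPKM in fertile buds. The corrected p-value was 1 for both pathways in the authors' deposited table. CYP91A2 and CYP71B22 thus made up 2 of the 7 and 2 of the 9 higher genes of these rows.

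Each P450 code was paired with 1 listed gene, so no second copy of a P450 gene could be compared. Genes most like each P450 gene were taken by distance in the plane of log2(RPKM + 1) of the 2 libraries, which likens levels over 2 samples and no more. CYP98A8 had no close match. Its nearest genes were Bra008661 at a distance of 0.858, with 67.7 RPKM in sterile and 2017 RPKM in fertile buds, Bra026541 at 0.874 and Bra015048 at 0.959, each without a name here. The nearest named gene was Bra017219 (MAT3), an S-adenosylmethionine synthase, at a distance of 1.78, with 99 RPKM in sterile and 424 RPKM in fertile buds. CYP91A2 also stood apart. Its nearest gene was Bra033189 at 0.964, with 59.4 RPKM in sterile and 1.09 RPKM in fertile buds. Next came the ribosomal protein gene Bra019070 (AT4G27090), also at 0.964, with 58.3 RPKM in sterile and 2.74 RPKM in fertile buds, and Bra029306 at 1.02.

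CYP81F2 and CYP71B22 lay among many genes of like levels. The gene nearest to CYP81F2 was Bra016955 (AT2G41020) at a distance of 0.0364, with 2.92 RPKM in sterile and 16.6 RPKM in fertile buds. Bra009140 and Bra021383 followed at 0.0377 and 0.0413. Of the 3 genes nearest to CYP71B22, Bra000615 was listed by the authors, and Bra013049 and Bra010501 were not. Bra013049 had 34.2 RPKM in sterile and 7.44 RPKM in fertile buds, a fold of 4.6 against 4.43 for CYP71B22. It rested on at least 24 reads in sterile and 6 in fertile buds, against 77 and 20 for CYP71B22, and its interval ran from 1.83 to 13.8. Bra010501 was 4.31-fold higher in sterile buds, from at least 15 reads in sterile and 4 in fertile buds (interval 1.37 to 17.9). The nearest named gene was Bra031798 (AT1G12010), from the family of ethylene-forming oxygenases, at 0.917, with 34.3 RPKM in sterile and 3.44 RPKM in fertile buds.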

How the data were processed

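RNA was sequenced from 1 library of sterile and 1 of fertile buds. The submitters' processing notes name TopHat as a tool. Its version, the counting tool, the annotation and the build are not given in the sources used here. RPKM values were deposited by the authors for 51357 features, of which 10338 without a Bra gene identifier were left out. The authors also deposited log2 fold changes, p-values and q-values of 1012 genes, per the file headers. A further table deposited by the authors gave pathways with the number of Arabidopsis genes and p-values. No P450 identifier was found among the RefSeq genes of CAAS_Brap_v3.01.

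Library totals were recovered from 481 listed genes at 0 in 1 library. The 475 genes at 0 in sterile buds gave the fertile total, and the 6 genes at 0 in fertile buds gave the sterile total. Their folds in the authors' deposited table were whole multiples of 1 read within 1.08e-10. The step of 3 bp in gene length was assumed. Reads of the other genes are the smallest that give both RPKM values at a length in steps of 3 bp (tolerance 1e-06, relative). Ratios have Clopper-Pearson intervals and levels exact Poisson intervals. Python 3.11.15 and SciPy 1.17.1 were used. The steps were run on simulated reads with lengths in steps of 3 bp, which cannot check that step or the recovered reads. Genes that reached RPKM 1 in sterile or fertile buds were kept, and the pseudocount was 1. Beside the 4 genes, the text names the genes of the 3 largest differences in each direction per shared pathway and the 3 nearest genes, plus the nearest named one. In the pathways of stilbenoids and limonene each gene was named. Members, lists and rules were chosen with earlier results of these data known. Alternatives were other pseudocounts, filters and scalings.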

Additional observations from a re-analysis of the deposited data

How the results depend on the processing

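For the 4 P450 genes, 20 differences were recomputed. The settings were pseudocounts of 0.1 and 10, and scaling by the median ratio, the trimmed mean of log ratios or the upper quartile. Each gene kept its direction in all 20, but these settings could not have reversed it. A pseudocount added to both levels cannot change the sign. The shifts from rescaling, given above, were far smaller than the difference of any of the 4 genes. In 17 of the 20 the value lay within the counting interval of the log2 ratio. The other 3 came with a pseudocount of 10, which exceeds the lower of the gene's 2 levels in each. It gave 3.32 for CYP91A2 against 5.26, -1.04 for CYP81F2 against -2.15, and 1.3 for CYP71B22 against 2.01. The reading of the reads of CYP98A8 as 2 times the minimum was chosen after seeing the data, and it changes the interval alone. Among all genes, a pseudocount of 10 gave 1316 lower and 468 higher genes by the rule of size, against 4042 and 3224. A minimum of 5 RPKM gave 2426 lower and 2011 higher genes, since fewer genes were kept. The other 10 of 14 counts stayed within 1.5 times. Among these, the counts without a filter on low values could not change. A gene below 1 RPKM in both libraries cannot reach a log2(RPKM + 1) difference of 1. Read numbers limit CYP91A2 in fertile buds (5 reads) and CYP81F2 in sterile buds (7 reads). No paired analysis was possible because each group had 1 library and no test was run.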
